A study of Mus musculus with 18 samples.

Results

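Gabra6, Fat2, Neurod1, Neurod2, Pcp2, Skor2, Gng13, Eomes, En2 and Barhl2 are genes known from neurons of the cerebellum, several of them from other tissues as well, and their levels were followed here in RNA from the mouse cochlea. These 10 genes, out of 46583 in the deposited table, were picked by name because they stood high in earlier results from these same data, in the cochlear base of mice lacking Fst. The values of that pool against the control base are therefore given as a description, with no test.

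The tissue was the cochlea of 4-week-old mice, cut along its length into base, middle and apex. Control mice, whose genotype is given as WT and untreated, were compared with conditional knock-out (cKO) mice for Fst, which encodes follistatin, a secreted binding protein and antagonist of activins. For each of the 6 groups, control base, control middle, control apex, cKO base, cKO middle and cKO apex, 1 pool of RNA was made and split into 3 technical libraries. How many animals a pool holds and which Cre driver deleted Fst are not given in the sources used here, and each p-value below measures only the spread between libraries of 1 pool.

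Granule cells are the small, very numerous excitatory neurons of the cerebellar cortex, and Purkinje cells are its large inhibitory output neurons. Unipolar brush cells are excitatory interneurons that lie among the granule cells. Most of the genes below are assigned to 1 of these classes, while En2 and Barhl2 are regional transcription factors assigned to none. In bulk RNA, the number of cells of a class and the amount of RNA per cell cannot be told apart.

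Of the genes followed, 8 had a promoter entry in RefSeq (GRCm38.p6), all except En2 and Skor2. The bases upstream of the RefSeq start are shown for 4 of them, 1 for each of the 3 cell classes and, in Neurod2, a second granule cell gene that shares a motif with Pcp2. They lie at chr11:42321073-42321322, minus strand, for Gabra6, at chr11:98329649-98329895, minus strand, for Neurod2, at chr8:3625548-3625797, minus strand, for Pcp2, and at chr9:118477939-118478188, plus strand, for Eomes. Capitals mark the motif CAGATG, an E-box of the kind that NEUROD proteins bind.
Gabra6: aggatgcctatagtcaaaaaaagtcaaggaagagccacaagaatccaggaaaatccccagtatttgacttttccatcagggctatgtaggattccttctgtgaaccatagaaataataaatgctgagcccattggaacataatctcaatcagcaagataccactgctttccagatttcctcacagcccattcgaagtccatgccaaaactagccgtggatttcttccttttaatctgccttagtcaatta
Neurod2: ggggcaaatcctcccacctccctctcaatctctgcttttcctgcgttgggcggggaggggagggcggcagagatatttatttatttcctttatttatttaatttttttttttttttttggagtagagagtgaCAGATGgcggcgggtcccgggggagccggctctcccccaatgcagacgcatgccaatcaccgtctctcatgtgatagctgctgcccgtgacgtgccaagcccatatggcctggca
Pcp2: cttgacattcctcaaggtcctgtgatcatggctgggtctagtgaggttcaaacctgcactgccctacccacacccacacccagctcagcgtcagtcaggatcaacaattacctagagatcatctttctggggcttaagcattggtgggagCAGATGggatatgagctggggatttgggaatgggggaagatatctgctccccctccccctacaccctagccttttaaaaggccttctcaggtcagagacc
Eomes: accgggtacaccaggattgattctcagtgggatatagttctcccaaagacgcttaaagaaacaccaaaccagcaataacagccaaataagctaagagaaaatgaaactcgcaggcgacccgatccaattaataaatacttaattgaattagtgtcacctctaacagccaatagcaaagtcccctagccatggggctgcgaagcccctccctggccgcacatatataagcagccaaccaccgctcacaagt
In windows of 250 bases upstream, searched on both strands (CAGCTG and TAATTA read the same on each), CAGATG was present in 2 of the 8, with its first base 118 bases before the start of Neurod2 and 100 bases before that of Pcp2. It was present in 14.4% of all 32851 promoters searched. The other E-box searched, CAGCTG, was in 0 of the 8 and in 13% of all promoters. The T-box motif AGGTGTGA, of the family that EOMES belongs to, was in 0 of the 8 and 1.12% of all promoters. The homeodomain motif TAATTA was in 0 of the 8 and 4.84% of all promoters.

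The libraries held 24446765 to 33732709 counts, with a median of 28749806.5, and a floor of 3 counts corresponded to 0.0889 to 0.123 CPM, the unit used here for counts scaled to the library total. Fst itself followed its label in the middle (5.73 to 6.82 CPM in control, 2.71 to 3.38 in cKO) and the apex (23.4 to 25.1 in control, 9.55 to 10.3 in cKO). In the base it was 2.04 to 2.41 CPM in control and 1.73 to 1.97 in cKO, a log2 difference of -0.22 (adjusted p = 0.308, edgeR quasi-likelihood test with Benjamini-Hochberg adjustment), so the base libraries are checked only weakly by the deleted gene. Cochlear genes were present in every pool: the summed level of 11 hair cell genes was 154 to 155 CPM in cKO base and 159 to 164 in control base, and 6 lateral wall and matrix genes summed to 30300 to 30400 and 31800 to 32100 CPM.

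Gabra6 (ENSMUSG00000020428, chr11:42306437-42321072, minus strand, GRCm38/mm10 as for all positions of genes here) encodes a GABA-A receptor subunit that is a classical marker of mature granule cells. It had 570, 582 and 550 counts in the cKO base libraries and 0 in each library of control base, control apex and cKO apex. Control middle held 1, 0 and 1 counts and cKO middle 3, 0 and 1. In CPM, cKO base stood at 22, 22.4 and 21.2, against at most 0.0894 in any of the 15 other libraries, and held 99.7% of the sum of the 6 group means. The summed counts of cKO base were at least 630-fold higher than those of control base, taking the floor of 3 counts over the control pool, and 552 times those of cKO middle (95% Clopper-Pearson interval 215 to 2030, counting error only, as for all such intervals here).

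Neurod1 (ENSMUSG00000034701, chr2:79452521-79456751, minus strand) is a bHLH transcription factor that granule cells need to form, and the inner ear uses it in developing sensory neurons. Its levels in cKO base were 17.7, 17.4 and 18.5 CPM, against 0.0964, 0.291 and 0.164 in control base, a ratio of summed counts of 96.6 (59.3 to 169). Unlike Gabra6, it was also present in each of the other pools. Control apex held 0.804, 0.835 and 0.73 CPM, cKO apex 0.669, 0.704 and 0.481, control middle 0.346, 0.482 and 0.242, and cKO middle 0.477, 0.297 and 0.356. The libraries of control apex lay above those of every other pool but cKO base. Control middle overlapped with control base, with cKO middle and, by its highest library, with cKO apex. Exons of Neurod1 share 201 bases with Cerkl on the same strand and 154 with Gm26755 on the other, so some of its low counts may belong to those genes.

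Neurod2 (ENSMUSG00000038255, chr11:98325415-98329648, minus strand), a related bHLH factor of differentiated granule cells and of cortical neurons, was at 5.57, 5.93 and 6.93 CPM in cKO base. In the control base it was at 0.0643, 0.0648 and 0.0409 CPM, or 5 counts in all. The ratio of summed counts was 106 (45.2 to 329). The other 4 pools held 7 to 13 counts each, and no library outside cKO base passed 0.208 CPM.

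Fat2 (ENSMUSG00000055333, chr11:55250609-55336564, minus strand), a giant protocadherin found on the parallel fibres of granule cells, behaved differently from the other granule cell genes. It was abundant in every pool: 60.4, 62.1 and 63.8 CPM in control base, 76.8, 76.2 and 74.7 in control middle, 63.9, 61.8 and 63.6 in control apex, 64.6, 64.8 and 64.2 in cKO middle, and 55.1, 54.8 and 55.3 in cKO apex. In cKO base it stood at 127, 129 and 128 CPM. Its ratio to control base was 2.07 (2 to 2.14), and cKO base held 28.5% of the sum of the group means.

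**Figure D1:**
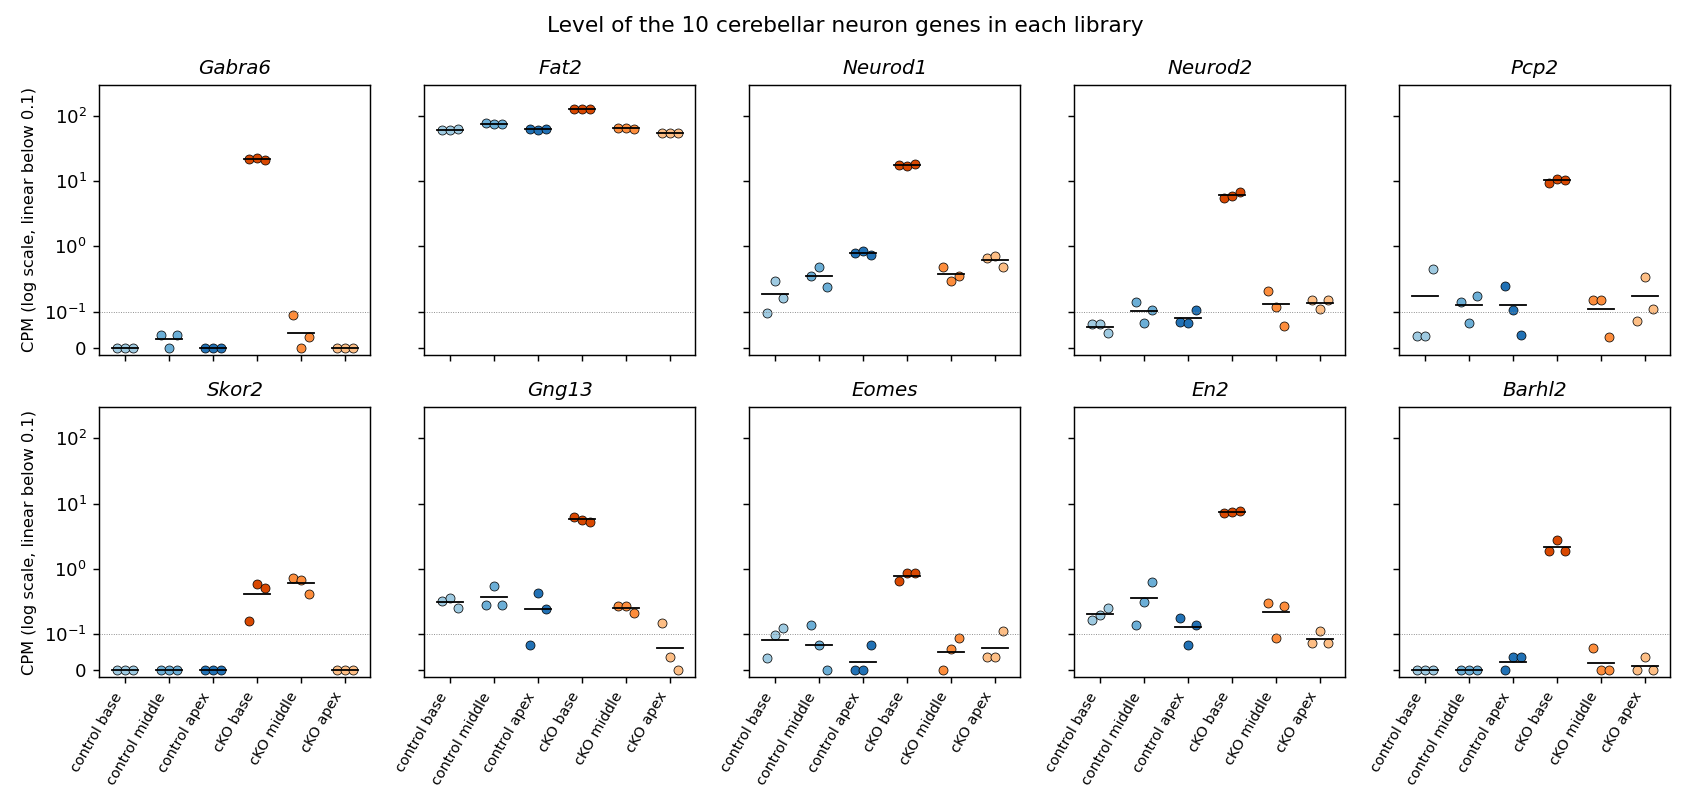
Level of each of the 10 genes in the 3 technical libraries of each group, as CPM on an axis that is logarithmic above 0.1 and linear below it (dotted line). Points are libraries and bars group means. The cKO base libraries lie above the other 15 in 9 of the genes, Fat2 is at 54.8 CPM or more everywhere, and Skor2 is above 0 in cKO base and cKO middle only.

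Pcp2 (ENSMUSG00000004630, chr8:3623371-3625545, minus strand), also called L7, encodes a modulator of G-protein signalling and is a classical Purkinje cell marker. Its levels were 9.55, 11 and 10.4 CPM in cKO base and 0.0321, 0.0324 and 0.45 in control base, a ratio of 68.4 (39.8 to 129). Control base replicate 3 alone gave 11 of the 13 counts of its pool, and without it the fitted log2 difference was 8.13 in place of 6.04. Every other pool held 11 to 14 counts. Annotated exons of Pcp2 overlap those of Pet100 on the opposite strand over 941 bases, and whether the counting used strand is not given in the sources used here.

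Gng13 (ENSMUSG00000025739, chr17:25717171-25719406, plus strand), a G-protein gamma subunit of Purkinje cells that also serves taste and olfactory cells, was at 6.26, 5.62 and 5.27 CPM in cKO base. The control base held 0.321, 0.356 and 0.245 CPM, and the ratio was 18.3 (12.4 to 28.1). Its levels elsewhere were low but above 0 in all libraries except 1 of cKO apex: 0.277, 0.551 and 0.276 CPM in control middle, 0.0699, 0.418 and 0.243 in control apex, 0.268, 0.267 and 0.208 in cKO middle, and 0.149, 0.037 and 0 in cKO apex. Its exons overlap Chtf18 on the opposite strand over 399 bases. Of 6 olfactory and taste cell genes, 4 could be tested and 0 were called between cKO base and control base by edgeR, DESeq2 or limma (1 had an unadjusted p under 0.05, and 1 was called without control base replicate 1).

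Skor2 (ENSMUSG00000091519, chr18:76856405-76900342, plus strand), a SKI-family corepressor that Purkinje cells need for their differentiation, was the exception in place. It had 0 counts in all 9 control libraries and in the 3 of cKO apex. The cKO base libraries held 4, 15 and 13 counts (0.155, 0.577 and 0.5 CPM), and the cKO middle libraries 24, 23 and 14 (0.715, 0.682 and 0.415 CPM). The libraries of these cKO pools overlapped, with a base to middle ratio of 0.681 (0.43 to 1.06). The summed counts of cKO base were at least 11.8-fold higher than those of control base, and those of cKO middle at least 17.5-fold higher than those of control middle.

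Eomes (ENSMUSG00000032446, chr9:118478212-118486132, plus strand), also called Tbr2, is the T-box factor of unipolar brush cells and their progenitors. It had 17, 22 and 22 counts in cKO base (0.657, 0.847 and 0.847 CPM) and 1, 3 and 3 in control base, a ratio of 9.68 (4.43 to 25.1). Control middle held 4, 2 and 0 counts, control apex 0, 0 and 2, cKO middle 0, 2 and 3, and cKO apex 1, 1 and 3. All 3 cKO base libraries were above the highest of the others, which was 0.138 CPM, and the other 5 pools overlapped each other. Its exons share 118 bases with Gm33460, an antisense gene.

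En2 (ENSMUSG00000039095, chr5:28165694-28172166, plus strand), the Engrailed homeobox factor that patterns the midbrain and cerebellum, was at 7.19, 7.39 and 7.77 CPM in cKO base. It was at 0.161, 0.194 and 0.245 CPM in control base, a ratio of 37.9 (23.5 to 65.5), and 7 to 31 counts were found in each of the other pools. Barhl2 (ENSMUSG00000034384, chr5:106452523-106458166, minus strand), a homeobox factor of several brain regions and of the retina, had 49, 72 and 49 counts in cKO base (1.89, 2.77 and 1.89 CPM). It had 0 in control base and control middle and 1 or 2 in each of the remaining pools. The cKO base counts of Barhl2 were at least 63-fold higher than those of control base.

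All 10 genes passed the filter on low counts, 4 of them (Fat2, Neurod1, Skor2 and Gng13) also when the cKO base libraries were set aside, so the other 6 entered the fit only through the pool where they are high. In 9 of the 10, all but Skor2, each cKO base library was above each of the 15 others. The same holds for 6.76% of the 17901 genes tested. Between cKO base and control base the fitted log2 differences of the 10 ran from 1.04 for Fat2 to 12.32 for Gabra6, with a median of 6.3 against -0.02 over all genes tested. All 10 were past the threshold of the fit (adjusted p under 0.05 and at least 1 on the log2 scale in either direction), where 3.03% of all genes are. These values describe the choice of the genes. Over the 18 libraries, the Pearson r of log2(CPM + 0.5) between any pair of the 9 was 0.90 or more, and between Skor2 and the others 0.43 to 0.49. The points share libraries and pools, and 1 pool sets these values.

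Compared per length, the genes fell into an order within cKO base. In the authors' FPKM (fragments scaled to gene length and library size), Pcp2 was at 30.3, 35.1 and 32.5, Gng13 at 22, 20.3 and 18, Gabra6 at 10.8, 10.7 and 10.1, Fat2 at 9.07, 9.24 and 9.13, and Neurod1 at 7.08, 6.97 and 7.38. En2 (2.18, 2.24 and 2.36) and Neurod2 (1.92, 2.04 and 2.38) overlapped each other. Barhl2 (0.905, 1.32 and 0.9), Eomes (0.244, 0.298 and 0.255) and Skor2 (0.0532, 0.199 and 0.172) followed, each below the one before in every library. The place of the first pair depends on the length used: the FPKM of Pcp2 corresponds to 316 bases where its annotated exons span 1828, and that of Gng13 to 285 where they span 773. Per kilobase of annotated exon, the mean levels were 8.81 CPM for Fat2, 8.8 for Gabra6, 7.4 for Gng13, 6.56 for Neurod1 and 5.63 for Pcp2, and the order from En2 down to Skor2 was unchanged.

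**Figure D2:**
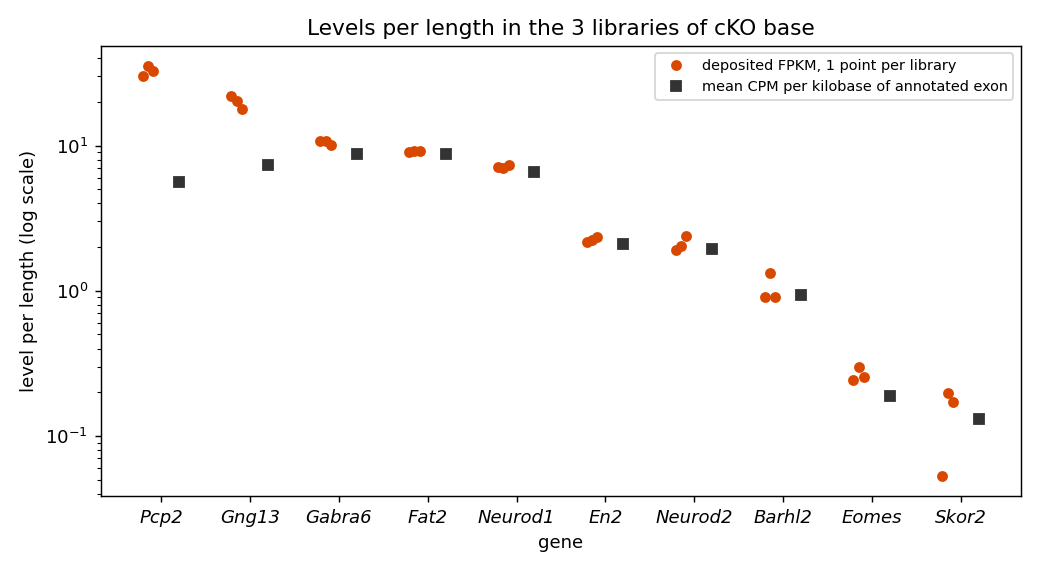
Levels per length of the 10 genes in cKO base on a log scale, as deposited FPKM in each of the 3 libraries (circles) and as mean CPM per kilobase of annotated exon (squares). The measures differ most for Pcp2 (32.6 FPKM, 5.63 CPM per kilobase) and Gng13 (20.1 and 7.4).

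Whether the 3 cell classes stood in 1 proportion across the pools was then described. In cKO base, the summed CPM of Pcp2, Skor2 and Gng13 divided by that of Gabra6, Fat2, Neurod1 and Neurod2 was 0.0944 ± 0.00319 (SD, n = 3 technical libraries), and Eomes divided by the same granule cell sum was 0.0045 ± 0.000596. In control base the ratios were 0.00764 ± 0.0028 and 0.00133 ± 0.000719, and in cKO middle 0.0147 ± 0.00403 and 0.000762 ± 7e-04. The Purkinje to granule ratio was 0.00421 to 0.00647 as a mean in the other 3 pools. So neither ratio was the same in all pools.

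Fat2 makes up most of that granule cell sum outside cKO base. Without it, a split chosen after seeing the data, the granule cell sum was 45.9 CPM in cKO base and 0.24 to 0.871 CPM as a mean in the other 5 pools. The Purkinje to granule ratio was then 0.358 ± 0.0152 in cKO base, 0.301 ± 0.141 in cKO apex, 0.423 ± 0.134 in control apex, 1.04 ± 0.206 in control middle, 1.86 ± 0.681 in cKO middle and 2.23 ± 1.15 in control base. With Fat2, cKO base thus had the highest ratio of the 6 pools, and without it a lower mean than 4 of them. Without Fat2 its libraries (0.346 to 0.375) overlapped those of control apex (0.333 to 0.577) and cKO apex (0.176 to 0.455). The Eomes to granule ratio was likewise highest in cKO base with Fat2. Without it the mean was lowest there, at 0.0171 ± 0.00222 against means of 0.0278 to 0.358 in the other 5 pools. Single libraries of control apex, control middle and cKO middle were lower still, at 0. In FPKM with Fat2 it was 0.00919 ± 0.000997 in cKO base and 0.0103 ± 0.00775 in control base. In the pools other than cKO base these ratios rest on a few counts per library. In FPKM, with all 4 granule cell genes, the cKO base ratio was 1.83 ± 0.0864, at a granule cell sum of 28.9 FPKM (174 CPM) and a Purkinje cell sum of 52.9 FPKM (16.4 CPM). No cerebellar RNA was analysed here, so the ratios have no reference to be read against.

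Among the genes of these classes that had not been picked for the pool, a part was higher in cKO base too. These lists were written with earlier results of these data known, and they have no chance test of their own. Of 19 other granule cell genes, 11 were called higher in cKO base than in control base and 0 lower, with a median log2 difference of 1.21 against -0.02 over all genes tested. Of all genes, 2.51% were called higher and 0.514% lower. Pax6, a transcription factor of granule cell precursors, went from 0.138 ± 0.0506 to 5.32 ± 0.307 CPM (SD, n = 3 technical libraries, as below) and Cbln3, a secreted partner of Cbln1, from 1.71 ± 0.0938 to 63.4 ± 0.603. Gabrd, the delta subunit of granule cell GABA-A receptors, went from 0.607 ± 0.0655 to 10.4 ± 1.01 CPM, and Grm4, a glutamate receptor of parallel fibre terminals, from 7.93 ± 0.805 to 47.5 ± 2.24. The fitted log2 differences of these 4 were 5.21, 5.2, 4.06 and 2.57. By adjusted p alone in edgeR, 16 of the 19 were higher and 3 lower. The lower ones, named after their values were seen, were Slc17a7 (log2 difference -0.5), Mab21l1 (-0.34) and Svop (-0.2).

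Of 19 other Purkinje cell genes, 10 were called higher and 0 lower, with a median of 1.89. By adjusted p alone in edgeR, 15 were higher and 3 lower. The lower ones, named after their values were seen, were Pvalb (log2 difference -0.53), Foxp2 (-0.53) and Dner (-0.32). Rgs8, a regulator of G-protein signalling, had 2644 counts in cKO base and 15 in control base, a ratio of 196 (119 to 350). Car8, a carbonic anhydrase relative that binds the IP3 receptor, went from 2.59 ± 0.402 to 31 ± 1.76 CPM, Arhgef33 from 0.485 ± 0.138 to 5.6 ± 0.382, and Ppp1r17, a phosphatase inhibitor of Purkinje cells, from 0.656 ± 0.137 to 5.78 ± 0.56. Ppp1r17 was higher still in the apex, at 12.9 ± 0.531 CPM in control and 8.98 ± 0.648 in cKO, so its level is not highest in cKO base as that of Pcp2 is.

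Among other genes known from unipolar brush cells, Calb2, the calcium-binding protein calretinin, which spiral ganglion neurons and hair cells also hold, was at 568 ± 4.03 CPM in cKO base and 948 ± 11.3 in control base. Its log2 difference of -0.75 and that of Plcb4, a phospholipase C (-0.24), did not pass the fold threshold. Neither was therefore called with Eomes in the base.

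A part of the genes of cerebellar inhibitory interneurons was higher in the same pool. Of 14, 6 were called higher, 0 lower and 8 not called, with a median of 0.38. By adjusted p alone in edgeR, 9 were higher and 3 lower. The lower ones, named after their values were seen, were Lgi2 (log2 difference -0.78), Gjd2 (-0.71) and Sorcs3 (-0.17). Slc32a1, the vesicular transporter of GABA and glycine, had 406 counts in cKO base and 1 in control base, a ratio of 451 (80.5 to 17900). Tfap2b, a transcription factor of these interneurons, stood at 1.95 ± 0.225 CPM against 0.0136 ± 0.0236, Gad2, a GABA-making enzyme, at 4 ± 0.0906 against 0.0752 ± 0.067, and Slc6a5, the glycine transporter of Golgi cells, at 1.26 ± 0.31 against 0.0459 ± 0.0165. Of 4 cerebellar nucleus genes, 1 was tested and not called: Slc17a6, a vesicular glutamate transporter that spiral ganglion neurons may also carry, at 24.5 ± 1.4 CPM against 42.1 ± 1.17.

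**Figure D3:**
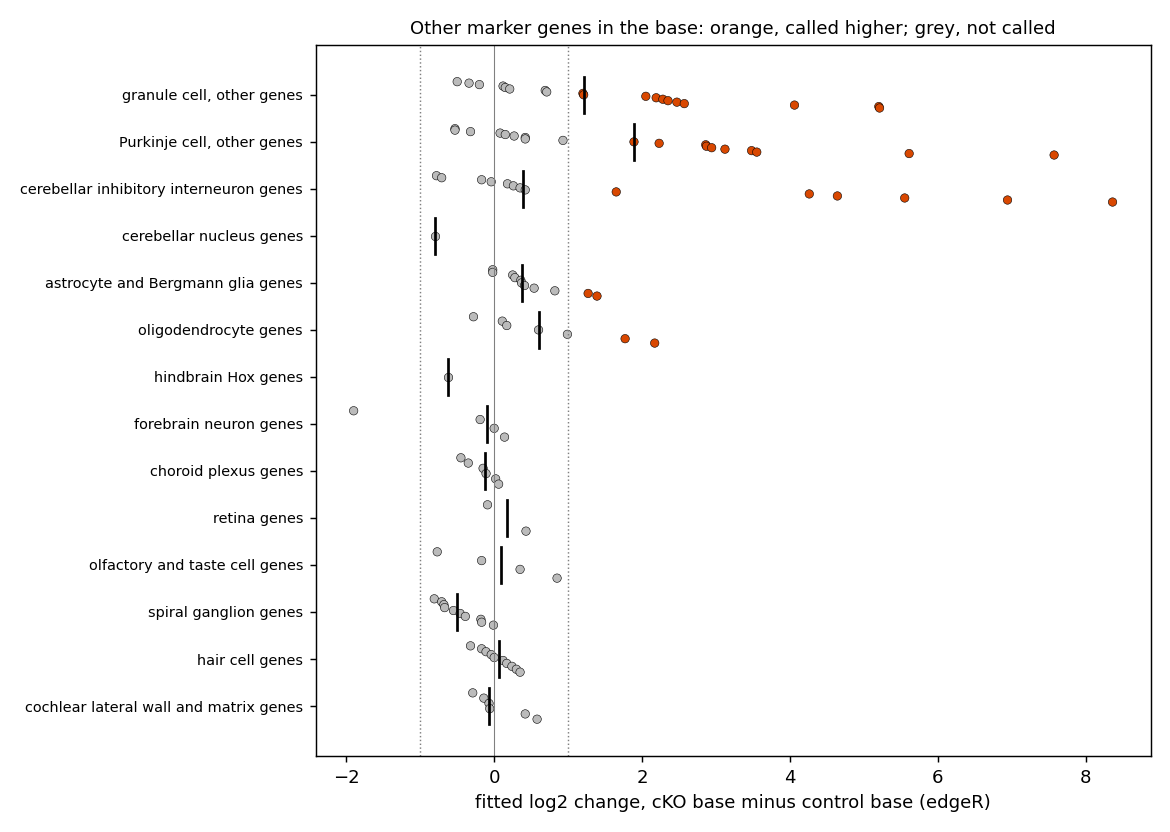
Fitted log2 difference between cKO base and control base for each tested gene of 14 marker lists, leaving out the 10 genes themselves; short bars are list medians, dotted lines the fold threshold, orange points genes called higher. Calls lie in the granule cell (11 of 19), Purkinje cell (10 of 19), inhibitory interneuron (6 of 14), astrocyte (2 of 11) and oligodendrocyte (2 of 7) lists.

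Other cell types the pool could hold were read from lists of their markers. Of 11 astrocyte and Bergmann glia genes, 2 were called higher, Acsbg1 (5.14 ± 0.202 to 13.6 ± 0.425 CPM) and Hopx (2.79 ± 0.346 to 6.73 ± 0.489). The list summed to 551 to 553 CPM in cKO base and 429 to 431 in control base. Of 8 oligodendrocyte genes, 7 were tested and 2 called higher, Olig1 (0.859 ± 0.248 to 2.92 ± 0.0786 CPM) and Olig2, which was named after its values were seen (0.135 ± 0.0557 to 0.642 ± 0.155). That list summed to 42.4 to 44 CPM in cKO base and 27 to 28.2 in control base, but to 130 to 134 in control middle, where Gabra6 had 2 counts. The oligodendrocyte sum therefore did not follow the 10 genes across pools. With any 1 of the 18 libraries left out, 3 or 4 of the oligodendrocyte genes were called in the base. Without control base replicate 1, or without replicate 3, there were 4, all higher.

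In the base, edgeR and DESeq2 called 0 genes in the lists of hindbrain Hox genes (1 of 4 tested), forebrain neurons (4 of 6), choroid plexus (6 of 6), retina (2 of 7), spiral ganglion (10 of 10), hair cells (10 of 11) and the cochlear lateral wall (6 of 6). Of these 39 genes, 24 had an unadjusted p under 0.05 in edgeR without passing the fold threshold, and limma on log2(FPKM + 0.1) called 1, a spiral ganglion gene, lower. The 10 spiral ganglion genes summed to 2030 to 2050 CPM in cKO base and 3010 to 3040 in control base, with a median log2 difference of -0.5. Within that list Nefl, a neurofilament, was at 461 ± 8.14 and 751 ± 7.25 CPM. Their part in the levels of the 10 genes was not tested. The forebrain gene Neurod6, named after its values were seen, was too low to be tested and had 20 counts in cKO base, 0 in control base and at most 2 in any other pool.

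The middle and the apex played no part in the choice of the genes, and their comparisons were tested. For Gabra6, Neurod2, Pcp2, Eomes, En2 and Barhl2, which entered the fit through cKO base alone, the counts in these pools are low and the tests are given as values only. Between cKO middle and control middle, edgeR's quasi-likelihood test with Benjamini-Hochberg adjustment called 1 of the 10 higher, where 2.15% of all genes tested were called higher, and 0 lower, where 0.575% were. The called gene was Skor2 (adjusted p = 6.36e-07, 61 counts against 0, higher in 3 of 3 libraries). The median of the 10 was -0.08, against 0 over all genes. Fat2 was lower by a log2 difference of -0.25 ± 0.0234 (SE of the fit; adjusted p = 8.63e-11 in edgeR), below the fold threshold. For the remaining 8 genes the adjusted p of edgeR was 0.217 or more. Without control middle replicate 1 the threshold was also passed by En2 (-1.09, adjusted p = 0.0464, edgeR), which was in the fit through cKO base alone. Ratios of summed counts show what the depth allowed: 1.72 (0.247 to 19) for Gabra6, 0.86 (0.338 to 2.19) for Pcp2 and 0.717 (0.173 to 2.82) for Eomes.

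Skor2 was not the only Purkinje cell gene high in the cKO middle. Of the 19 others, 3 were called higher and 1 lower there. They were named after their values were seen, apart from Rgs8. Rgs8 had 1019 counts in cKO middle and 2 in control middle, a ratio of 438 (121 to 3620), which put it at 10.1 ± 0.388 CPM against 34 ± 1.42 in cKO base. Calb1, the calcium-binding protein calbindin, stood at 47.6 ± 1.52 CPM in cKO middle and 8.95 ± 0.228 in control middle, and Pcp4, a calmodulin regulator, at 101 ± 3.05 and 17 ± 1.34. Both were lower in cKO base than in cKO middle, at 24.9 ± 0.259 and 28.3 ± 0.262 CPM. The gene called lower was Lhx1, a LIM homeobox factor, at 0.307 ± 0.0447 against 1.12 ± 0.223 CPM. Markers of other cell types differed between the same middle pools: 7 of 7 tested oligodendrocyte genes were called lower in cKO middle (median -3.1), their list summing to 17.5 to 19.2 CPM against 130 to 134. Of 11 astrocyte and Bergmann glia genes, 2 were called higher (Gdf10 and Hopx) and 1 lower (Gfap, 18.7 ± 0.211 against 60.5 ± 2.65 CPM), and their sums were 432 to 438 and 487 to 492 CPM. Of 4 tested forebrain neuron genes, 1 was called higher, Drd2, at 54 counts against 2. These genes were named after their values were seen, apart from Hopx, and their part in the level of Skor2 was not tested.

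Of the other granule cell genes, 3 of 19 were called higher in cKO middle and 0 lower, all named after their values were seen. Zic1, a zinc-finger factor of granule cells, stood at 14.1 ± 0.518 CPM against 5.35 ± 0.311 in control middle, and Zic4 at 2.78 ± 0.139 against 1.06 ± 0.193. Cdh15, a cadherin, was at 1.02 ± 0.0872 against 0.472 ± 0.19, and its log2 difference fell under the fold threshold without control middle replicate 1 (0.82). With limma on log2(FPKM + 0.1), 1 of these genes was called, Zic1, while Zic4 had an adjusted p of 0.0697 and Cdh15 a log2 difference of 0.82. Of the 14 inhibitory interneuron genes 0 were called in the middle by edgeR, DESeq2 or limma (7 had an unadjusted p under 0.05), and 1 was called higher without control middle replicate 3 or without cKO middle replicate 3. Gabra6 and Pcp2, at 4 and 11 counts over the cKO middle pool, were not called higher there, while Skor2, Rgs8, Calb1 and Pcp4 were.

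**Figure D4:**
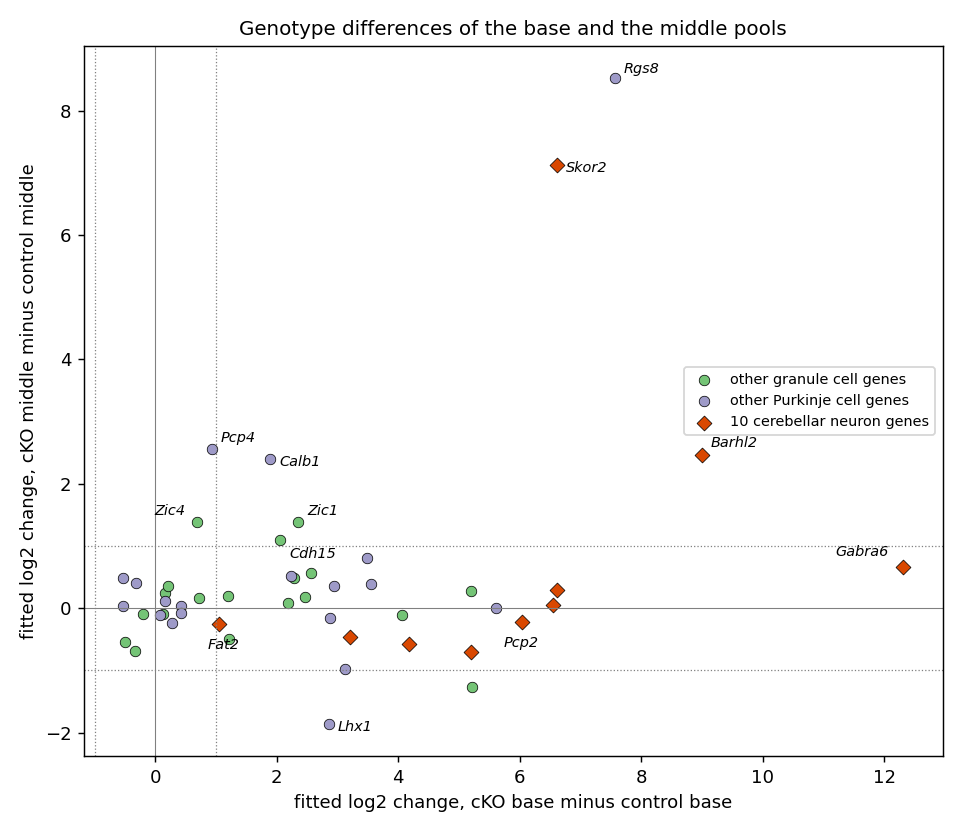
Fitted log2 difference of cKO minus control in the base (horizontal) and the middle (vertical) for the 10 genes (diamonds) and the tested genes of the other granule cell (green) and Purkinje cell (purple) lists; dotted lines mark the fold threshold. Skor2 and Rgs8 are high on both axes, while Gabra6 (12.32 and 0.67) and Pcp2 (6.04 and -0.22) are high in the base alone; values of genes with 0 counts in a group, such as Skor2, depend on the prior count of the fit.

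Between cKO apex and control apex, 0 of the 10 were called higher by edgeR, where 1.49% of all genes tested were, and 1 lower, where 0.553% were. This was Gng13, at 5 counts against 21, with a log2 difference of -1.89 ± 0.698 (adjusted p = 0.0292, edgeR). The libraries overlapped (0 to 0.149 CPM in cKO, 0.0699 to 0.418 in control), and 4 libraries decided the call. Of the control apex, it was lost without replicate 2 (-1.26, adjusted p = 0.245 in edgeR) or replicate 3 (-1.88, 0.0568). Of the cKO apex, it was lost without replicate 2 (-1.64, 0.101) or replicate 3 (-1.33, 0.146). It was also lost with limma on log2(FPKM + 0.1) (-1.14, adjusted p = 0.219) and on log2(FPKM + 1) (-0.39, adjusted p = 0.31). Fat2 was at -0.17 ± 0.0265 (adjusted p = 1.42e-06, edgeR), below the fold threshold. Gabra6 and Skor2 had 0 counts in both apex pools, so that they have no fold. Neurod2, Pcp2, Eomes, En2 and Barhl2, like Gabra6, entered the fit through cKO base alone and had few counts here. The 0 called higher is therefore no result about these genes or Skor2. Of the other granule cell genes 2 of 19 were called lower in the cKO apex, Zic1 (0.284 ± 0.078 against 0.975 ± 0.21 CPM) and Zic4 (2 counts against 19), both named after their values were seen. Of the other Purkinje cell genes 1 of 19 was called higher, Car8 (4.62 ± 0.314 against 2.16 ± 0.144 CPM).

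Along the control cochlea, 1 of the 10 was called higher in the apex than in the middle, where 2.08% of all genes tested were called higher, and 1 lower, where 3.22% were. The first was Neurod1, with a log2 difference of 1.09 ± 0.295 (adjusted p = 0.00239, edgeR) and all 3 apex libraries above the 3 middle ones. Without control middle replicate 3 its difference was 0.88, under the fold threshold. The second was En2, with 11 counts against 31 (-1.49 ± 0.512, adjusted p = 0.0164, edgeR), whose libraries overlapped and which was in the fit through cKO base alone. Its call was lost without control middle replicate 3 (-0.83, adjusted p = 0.266 in edgeR), the library with 18 of the 31 counts, or control apex replicate 2 (-1.21, 0.0813). With limma on log2(FPKM + 0.1) neither gene was called (0.76, adjusted p = 0.00363, for Neurod1 and -0.54, adjusted p = 0.0689, for En2), nor with limma on log2(FPKM + 1) (0.19, 0.00438 and -0.09, 0.143).

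In the cKO, 0 of the 10 were called higher in the apex than in the middle, where 1.67% of all genes tested were, and 2 lower, where 2.93% were. Skor2 had 0 counts in the apex against 61 in the middle (adjusted p = 4.72e-07, edgeR), and Gng13 5 against 25 (-1.94 ± 0.676, adjusted p = 0.0165, edgeR). The call of Gng13 was lost without cKO apex replicate 2 (-1.69, adjusted p = 0.0679 in edgeR) or replicate 3 (-1.38, 0.0999). Without cKO middle replicate 2, Gabra6 (-3.86, adjusted p = 0.036, edgeR) and En2 (-1.66, 0.0241) passed the threshold too, the first on 4 counts against 0, both in the fit through cKO base alone. The apex-middle difference of Neurod1 was 0.7 ± 0.301 in the cKO (adjusted p = 0.0507, edgeR). These comparisons share the cKO apex and middle pools with those by genotype. Genes of the 10 in the fit through cKO base alone had few counts in both pools. The 0 called higher is no result about them.

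Whether the genotype difference itself differed between middle and apex was tested as an interaction over all genes. Of the 10, 0 were called by edgeR, where 3.6% of all genes tested were, and 0 had an unadjusted p under 0.05. For Gabra6 and Skor2, at 0 counts in both apex pools, the term could not be estimated (adjusted p of 1 in edgeR), so the count covers the other 8. Of those 8, Neurod2, Pcp2, Eomes, En2 and Barhl2 entered the fit through cKO base alone and had few counts in these pools. Their standard errors in edgeR ran from 0.842 to 2.12, so a 0 for them was nearly fixed in advance and is no result about them. DESeq2 (6.45, adjusted p = 0.0135) and limma on log2(FPKM + 0.1) (1.58, adjusted p = 0.00102) each called 1 of the 10, Skor2. For Gng13 the interaction was 1.31 ± 0.841 (adjusted p = 0.237, edgeR) and for Fat2 -0.07 ± 0.0354 (adjusted p = 0.125, edgeR).

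Genes whose pattern over the 18 libraries was most like that of 3 of the members, Gabra6, Pcp2 and Eomes, were looked up among 15740 genes by Pearson r of log2(CPM + 0.5), as a description set by the cKO base pool. Among the 6 most like Gabra6 were Slc32a1 (0.9985), Tfap2b (0.9975), Mybpc3 (0.9967), Syndig1l (0.9966) and Uncx (0.9962). For Pcp2 the first 5 were these genes in another order, led by Mybpc3 (0.9904). For Eomes the 6 were Pax6 (0.9708), Slc32a1 (0.9708), Chn2 (0.97), Syndig1l (0.9696), Mybpc3 (0.9674) and Uncx (0.9673). Mybpc3 stood at 7.08 ± 0.48 CPM in cKO base and at most 0.0761 as a mean elsewhere, and Uncx, a homeobox gene, at 1.7 ± 0.299 and at most 0.0198. Slc32a1, Syndig1l, Mybpc3 and Uncx were among the 6 for each of the 3. Pax6 and Chn2 kept a level outside cKO base, at 0.138 and 7.76 CPM in control base.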

How the data were processed

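Bulk RNA sequencing libraries (TruSeq RNA v2 with Ribo-Zero, per the labels) were made from 6 pools of cochlear RNA, 3 technical libraries each. The submitters' processing notes name STAR 2.5.2b, Cuffdiff 2.2.1 and GRCm38/mm10 without roles. The authors deposited an estimated count per gene and library, unscaled, from a counting step not given in the sources used here, and FPKM values they computed per library. Over all 46583 genes, zeros included, between 89.2% and 89.9% of a library's counts were whole within 1e-06, and all were rounded. After rounding, 21820 to 22764 genes per library were above 0, so the whole share among genes with reads is lower.

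CPM is the rounded count over the library total. The count test was edgeR 4.0.16 in R 4.3.3, in which 17901 genes passed filterByExpr. TMM scaling gave factors of 0.977 to 1.03. Two-sided quasi-likelihood tests came from a joint fit of the 6 groups (12 residual degrees of freedom). Genes were called at a Benjamini-Hochberg adjusted p under 0.05 and an absolute log2 change of at least 1, because the coefficient of variation between technical libraries was only 0.00988. Libraries of 1 pool differed by a chi-square of 1.19 to 1.59 per degree of freedom. Tests recovered known changes on simulated data. DESeq2 1.42.0 and limma 3.58.1 (on log2 of the deposited FPKM plus 1 or 0.1), other scalings, no filter, adjusted p alone, a replicate block and each library left out served as alternatives. Without molecular identifiers, intervals and floors (3 counts) reflect counting error alone.

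The members and the 15 other lists (136 genes, 1 on more than 1 list) were chosen with earlier results of these data known. Named were all members, from each list the 4 genes with the largest absolute base difference among those at 1 CPM or more in either group, and the 6 genes most like each of Gabra6, Pcp2 and Eomes, some of which are not reported here. Positions came from GENCODE on GRCm38/mm10. Upstream sequences came from RefSeq (GRCm38.p6), without bases that GENCODE places inside the gene.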

Additional observations from a re-analysis of the deposited data

How the results depend on the processing

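Under each alternative the base difference of each of the 10 genes kept its sign (260 of 260 values), and 21 of 416 values lost their call, among them the leave-one-out cases given above. The number of genes called moved most with the unit and the fold threshold. With limma on log2(FPKM + 1) it was 122 in the base (542 as reported), 111 in the middle (487), 46 in the apex (365), 203 between apex and middle of the control (949), 203 of the cKO (824) and 170 for the interaction (645). On log2(FPKM + 0.1) it was 323 in the middle and 223 in the apex. By adjusted p alone it was 6459 in the base (2945 higher, 3514 lower, against 450 and 92), 6385 in the middle, 7266 in the apex, 8139 in the control, 9115 in the cKO and 6796 for the interaction. Leaving out 1 library gave 532 to 585, 490 to 521, 360 to 396, 943 to 977, 832 to 867 and 618 to 650 in that order.

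With the replicate number as a block the counts were 544, 489, 363, 947, 819 and 638, and no call of the 10 genes changed. The numbers name technical libraries. Over 45 pairs of libraries with the same number, the correlation of deviations ran from -0.069 to 0.207. Its median was 0.009, against -0.003 for pairs with different numbers. Of 18 libraries, 13 correlated best with their own number out of the 3, more than an even spread over the numbers would give. What libraries of the same number share was not tested.

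The Purkinje to granule ratio of cKO base (0.0944) was 1.83 in FPKM, 0.358 without Fat2 and 0.0926 to 0.0954 with 1 library left out. The Eomes to granule ratio (0.0045) was 0.00919, 0.0171 and 0.00433 to 0.00485. By adjusted p alone, 16 of the other granule cell genes were higher and 3 lower in the base. Of the other Purkinje cell genes, 15 were higher and 3 lower. With no filter on low counts, 1 hindbrain Hox gene and 1 retina gene were called lower and 1 forebrain gene higher in the base. With limma on log2(FPKM + 1), 2 inhibitory interneuron genes and 0 oligodendrocyte genes were called in the base, and 0 of the 10 genes and 0 other granule cell genes in the middle. Outside cKO base, 9 of the 10 genes, all but Fat2, had at most 24 counts in a library, so small differences among those pools were not detectable at this depth.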
